A study of Mus musculus with 10 samples.

Results

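Erythroid genes, the genes of developing and mature red blood cells, were examined in whole pancreas of 5-day-old mice. Counts on them were read as a check of blood RNA and early red cells in a tissue sample, not as a measure of their amount. Of 9 genes named for this purpose, 7 had a row of counts among 24062 gene rows: the alpha globins Hba-a1 and Hba-a2, the beta globins Hbb-bt and Hbb-bs, Alas2, Slc4a1 and Klf1. The eighth, Epb42, was listed under its older symbol Epb4.2 and is reported beside them. The other named gene was not analysed here.

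KSR23 mice carry R23, an IL-23 cassette (p19 and p40) in the ROSA26 locus behind a floxed STOP, and K14-cre, which removes the STOP in keratinocytes. The skin, not the pancreas, is therefore the intended source of IL-23. The comparison was made between 5 KSR23 and 5 wild-type (WT) libraries, all from C57BL/6 mice at postnatal day 5, with no treatment named. WT mice served as controls and the labels give no further allele for them. Littermates were usually the controls, but litter, sex and the mouse behind each library are not given in the labels, so p-values measure the spread between these libraries.

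Red cells form from erythroid progenitors that switch on Klf1, a transcription factor of the erythroid lineage, and then make haem, globin and a red cell membrane skeleton. Around birth, blood formation moves from the liver to the spleen and the bone marrow, and young red cells that still hold RNA circulate in large numbers. RNA of a whole organ includes the blood in its vessels. In bulk RNA, fewer red cells and less RNA per red cell cannot be told apart.

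The libraries held between 16715976 and 57784136 counts on genes, and 3 counts equalled between 0.0536 and 0.168 CPM, the counts on a gene per 1e+06 counts of scaled library size. KSR23 replicate 3 had the fewest counts, with 26830235 or more in every other library, and stood apart from the other KSR23 libraries in the erythroid genes. The fold changes of the erythroid genes are given with and without it. The pancreas label held: Prss2, Cpa1, Cela1 and Ctrb1, which encode acinar digestive enzymes, and Ins2 and Gcg, which encode islet hormones, had counts in all 10 libraries, and the 11 pancreas markers summed to between 103241 and 144440 CPM. The filter of 5 or more counts in each of the 10 libraries left 13882 genes, and 4299 of them passed edgeR's quasi-likelihood F test at a Benjamini-Hochberg adjusted p under 0.05, 2250 higher and 2049 lower in KSR23. With library size alone as the scaling the split was 3075 higher and 1161 lower, and the median log2 fold change (FC) of all genes moved from -0.01 to 0.09. None of the 4 erythroid genes described below changed direction with that scaling.

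The adult globins encode the protein chains of haemoglobin, the oxygen carrier that fills red cells. Hba-a1, Hba-a2, Hbb-bt and Hbb-bs were listed at 0 in all 10 libraries. They were among 4835 gene rows with no count in any library. No fold change or ratio was formed for them, and the alpha to beta ratio could not be computed. The limit of 3 counts covers counting error only and says nothing about reads that were set aside before counting.

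The near-identical copies of the globin genes are shown here because reads that align to more than 1 place were not counted. In GENCODE M21 on GRCm38, Hba-a1 lies at chr11:32283511-32284465 and Hba-a2 at chr11:32296489-32297298, both on the plus strand. Hbb-bs lies at chr7:103826534-103828096 and Hbb-bt at chr7:103812524-103813996, both on the minus strand. The first 75 bases of the coding part, counted from the start codon, are the same within each pair; none is in capitals because none differs.
Hba-a1 and Hba-a2: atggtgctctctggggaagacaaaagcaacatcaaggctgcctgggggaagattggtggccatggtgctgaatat
Hbb-bs and Hbb-bt: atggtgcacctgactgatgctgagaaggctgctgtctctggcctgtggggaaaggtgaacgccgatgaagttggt

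A read of 75 bases starting there would match both copies. Over the whole longest coding transcript, the share of 75-base windows found in no other annotated gene was 37.8% for Hba-a1, 19.0% for Hba-a2, 35.7% for Hbb-bs and 43.4% for Hbb-bt. Each globin therefore also held windows of its own. Rows named Hbb-b1 and Hbb-b2 were also present and were also at 0, as were the embryonic globins Hba-x, Hbb-y and Hbb-bh1, whose windows were all their own. Reads over overlapping gene models go to an ambiguous tally, which came to between 0.906% and 1.37% of the gene counts. In KSR23 it was highest in replicate 3, at 1.13%, below every WT library (1.26% to 1.37%). Alignments set aside as not unique came to between 1.07 and 1.26 per gene count in WT and between 0.667 and 0.787 in KSR23. KSR23 replicate 3 was the lowest of the 10 libraries there, at 0.667. Their part in the globin zeros was not tested.

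The theta globins Hbq1a and Hbq1b were the globin rows that held counts. The Hbq1b counts were 16, 14, 12, 18 and 7 in WT replicates 1 to 5 and 7, 3, 29, 1 and 5 in KSR23 replicates 1 to 5. KSR23 replicate 3 had the most counts on Hbq1b, in the library with the fewest counts in all. Hbq1a had at most 5 counts in any library. Only 68.4% of the windows of Hbq1b were its own, so its counts are uncertain.

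The 3 genes with counts and the tested Epb4.2 rose and fell together from library to library. None of the 4 passed the test over all 10 libraries, where 31.0% of all tested genes did. KSR23 replicate 3 was the highest of all 10 libraries and WT replicate 5 the lowest of WT for each of the 4 genes. The other 4 KSR23 libraries lay low, and without KSR23 replicate 3 all 4 genes were lower in KSR23.

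**Figure D1:**
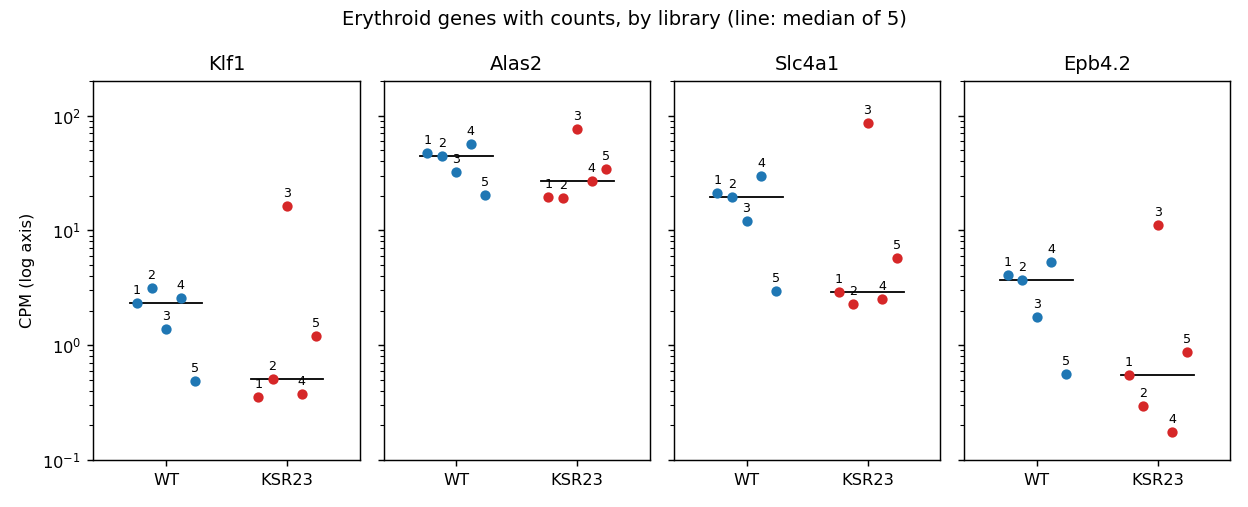
CPM of Klf1, Alas2, Slc4a1 and Epb4.2 in each library on a log axis, with the replicate number above each point and the median of 5 libraries as a line. KSR23 replicate 3 lies above every WT library in all 4 genes, and WT replicate 5 lies below the other WT libraries.

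Klf1, the erythroid transcription factor, lies at chr8:84901928-84905291 on the plus strand. The Klf1 CPM was 2.35, 3.16, 1.37, 2.58 and 0.484 in WT replicates 1 to 5. In KSR23 replicates 1 to 5 it was 0.352, 0.504, 16.4, 0.373 and 1.20. The groups overlapped: replicate 3 was above every WT library, replicates 1 and 4 were below every WT library, and replicates 2 and 5 fell within the WT range. The mean was 1.99 ± 1.06 CPM in WT and 3.76 ± 7.07 CPM in KSR23 (SD, n = 5 each). The log2 FC was 0.76 (SE 0.830, edgeR adjusted p = 0.519). Without KSR23 replicate 3 the direction turned, with a log2 FC of -1.67 (SE 0.441, adjusted p = 0.00769).

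Alas2 encodes the erythroid form of the first enzyme of haem synthesis. The gene lies at chrX:150547375-150570638 on the plus strand. Its CPM was 46.9, 44.7, 32.5, 56.8 and 20.4 in WT replicates 1 to 5. In KSR23 replicates 1 to 5 it was 19.4, 19.1, 75.9, 26.8 and 34.0. Alas2 varied least of the 4 genes: the highest library was 3.98 times the lowest. The mean was 40.3 ± 14.1 CPM in WT and 35.0 ± 23.7 CPM in KSR23 (SD, n = 5 each). The log2 FC of Alas2 was -0.23 (SE 0.310, edgeR adjusted p = 0.619), and without KSR23 replicate 3 it was -0.69 (SE 0.213, adjusted p = 0.0191).

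Slc4a1 encodes band 3, the anion exchanger of the red cell membrane. The gene lies at chr11:102348824-102366203 on the minus strand. The Slc4a1 CPM was 21.3, 19.7, 12.1, 29.6 and 2.98 in WT replicates 1 to 5. In KSR23 replicates 1 to 5 it was 2.89, 2.28, 86.8, 2.51 and 5.79. KSR23 replicates 1, 2 and 4 were just below WT replicate 5 and far below the other WT libraries, while KSR23 replicate 3 was 2.93 times the highest WT library. In raw counts it was 1552 in KSR23 replicate 3 and at most 917 elsewhere, so it was also the highest before scaling. The mean was 17.1 ± 10.1 CPM in WT and 20.1 ± 37.3 CPM in KSR23 (SD, n = 5 each). The log2 FC of Slc4a1 was 0.12 (SE 0.802, edgeR adjusted p = 0.926). It turned to -0.16 without WT replicate 5 (adjusted p = 0.903) and to -2.32 without KSR23 replicate 3 (SE 0.411, adjusted p = 0.000281).

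Epb42, counted as Epb4.2, encodes protein 4.2, which binds band 3 to the membrane skeleton. The gene lies at chr2:121017891-121037072 on the minus strand. The Epb4.2 CPM was 4.07, 3.71, 1.76, 5.29 and 0.559 in WT replicates 1 to 5. In KSR23 replicates 1 to 5 it was 0.554, 0.296, 11.1, 0.174 and 0.875. The order of the libraries was close to that of Slc4a1, with 3 KSR23 libraries below every WT library and 1 above. The mean was 3.08 ± 1.90 CPM in WT and 2.60 ± 4.75 CPM in KSR23 (SD, n = 5 each). The log2 FC of Epb4.2 was -0.45 (SE 0.800, edgeR adjusted p = 0.711), and without KSR23 replicate 3 it was -2.63 (SE 0.497, adjusted p = 0.000507).

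With KSR23 replicate 3 left out, then, Alas2, Slc4a1, Klf1 and Epb4.2 were all lower in the remaining 4 KSR23 libraries, where 29.7% of 14036 tested genes passed the test and 14.0% were lower. This rests on leaving out a library after its values were seen. The mean CPM over those 4 libraries was 0.607 ± 0.399 for Klf1, 24.8 ± 7.10 for Alas2, 3.37 ± 1.63 for Slc4a1 and 0.475 ± 0.310 for Epb4.2 (SD, n = 4). WT replicate 5 still overlapped them in all 4 genes. With both KSR23 replicate 3 and WT replicate 5 left out, the log2 FC was -1.92 for Klf1 (edgeR adjusted p = 0.000955), -0.87 for Alas2 (0.00107), -2.59 for Slc4a1 (1.04e-06) and -2.91 for Epb4.2 (2.75e-05). In that fit 28.2% of all tested genes passed and 13.7% were lower. It left out the highest KSR23 and the lowest WT library of these genes, also after their values were seen. Its smaller p-values are therefore no separate support. Alas2 still overlapped, with 34.0 CPM in KSR23 replicate 5 and 32.5 CPM in WT replicate 3.

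**Figure D2:**
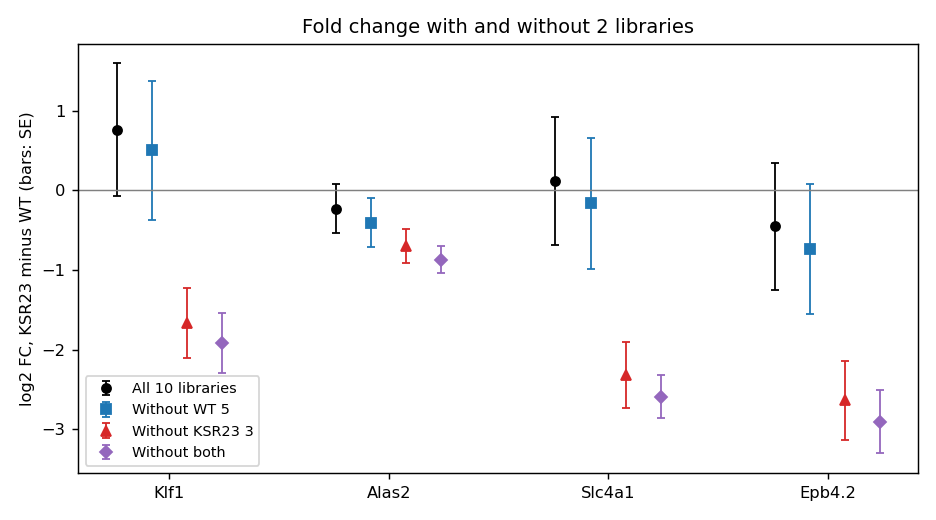
Log2 FC of KSR23 minus WT with its standard error for the 4 genes, over all 10 libraries, without WT replicate 5, without KSR23 replicate 3 and without both. Leaving out KSR23 replicate 3 moves Klf1 from 0.76 to -1.67 and Slc4a1 from 0.12 to -2.32, while leaving out WT replicate 5 moves them by less.

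The distance of KSR23 replicate 3 from the other KSR23 libraries was large beside that of other genes. On the log2 CPM scale it was 4.78 for Klf1, 4.77 for Slc4a1, 4.57 for Epb4.2 and 1.65 for Alas2 above the mean of the other 4. The same difference had a median of -0.01 over all tested genes, and 5% of genes lay above 0.58. Some genes outside the erythroid lists also lay far above, among them Abcb4 (3.79), Nxpe2 (3.79) and Ngp (3.40). A large distance was thus not particular to erythroid genes. In CPM, Klf1 was 27.0 times, Slc4a1 25.8 times, Epb4.2 23.3 times and Alas2 3.06 times the mean of the other 4 KSR23 libraries. Alas2, Slc4a1 and Klf1 together took 192 per 1e+06 gene counts in KSR23 replicate 3, between 22.1 and 39.7 in the other KSR23 libraries and between 23.9 and 83.1 in WT.

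The balance between the 3 genes was compared within each library, and no ratio differed between the groups past the threshold. The ratios were chosen after the globins were found at 0, and each was compared between the groups by exact permutation of the 10 libraries (two-sided), with p adjusted over 3 ratios and a smallest possible p of 0.00794. Counts on Slc4a1 came to 45.5%, 44.0%, 37.3%, 52.1% and 14.6% of those on Alas2 in WT replicates 1 to 5. In KSR23 replicates 1 to 5 they came to 14.9%, 12.0%, 114%, 9.37% and 17.0%. WT replicate 5 thus lay with the 4 low KSR23 libraries, and KSR23 replicate 3 lay above all others. The log2 ratio of Slc4a1 to Alas2 differed by -0.82 (exact permutation p = 0.254, adjusted 0.381), and without KSR23 replicate 3 by -1.45 (exact p = 0.0317, unadjusted).

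Counts on Klf1, an early gene of the lineage, were between 2.37% and 7.07% of those on Alas2 in WT. They were between 1.39% and 3.52% in 4 KSR23 libraries and 21.6% in KSR23 replicate 3. The log2 ratio of Klf1 to Alas2 differed by -0.32 (exact permutation p = 0.714, adjusted 0.714). It was -0.97 without KSR23 replicate 3 (exact p = 0.0476, unadjusted) and 0.0040 without KSR23 replicate 4 (exact p = 1.0).

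The ratio of Klf1 to Slc4a1 varied less. Counts on Klf1 were between 8.72% and 16.2% of those on Slc4a1 in WT and between 12.2% and 22.1% in KSR23, with KSR23 replicate 3 inside its group at 18.9%. The log2 ratio of Klf1 to Slc4a1 differed by 0.50 (exact permutation p = 0.0714, adjusted 0.214). Leaving out 1 library at a time moved this difference between 0.37 and 0.62, and the unadjusted p ran from 0.0397 to 0.159.

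**Figure D3:**
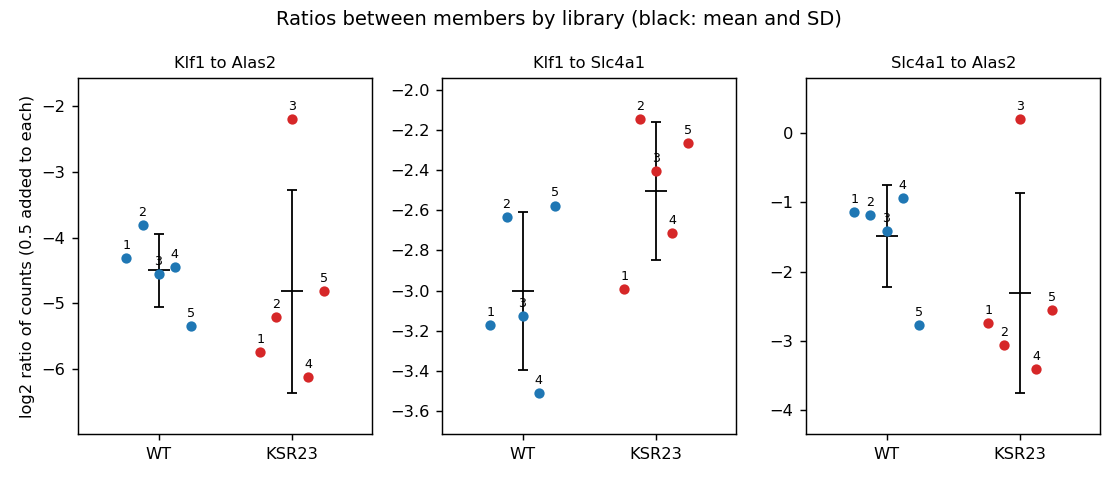
Log2 ratios of counts between Klf1, Slc4a1 and Alas2 in each library, with 0.5 added to each count, the replicate number above each point and the group mean with its SD in black. KSR23 replicate 3 is highest in the ratios to Alas2 and lies among the other KSR23 libraries in the ratio of Klf1 to Slc4a1.

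The wider erythroid programme was read from 6 lists that held 74 genes: globins other than the 4 above, haem synthesis, membrane, regulators, Epo, Kit and iron uptake, and late red cell genes. Of 67 with counts, 45 had their highest CPM in KSR23 replicate 3, as had 10.8% of the 13882 tested genes. Of 53 tested, 2 were higher, 7 lower and 44 not called, with a median log2 FC of -0.09 (-0.01 over all tested genes). Against these, 16.2% of all tested genes were higher and 14.8% lower. Leaving out KSR23 replicate 3, 2 were higher and 24 lower, with a median of -0.34. In that fit 15.7% of all tested genes were higher and 14.0% lower.

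**Figure D4:**
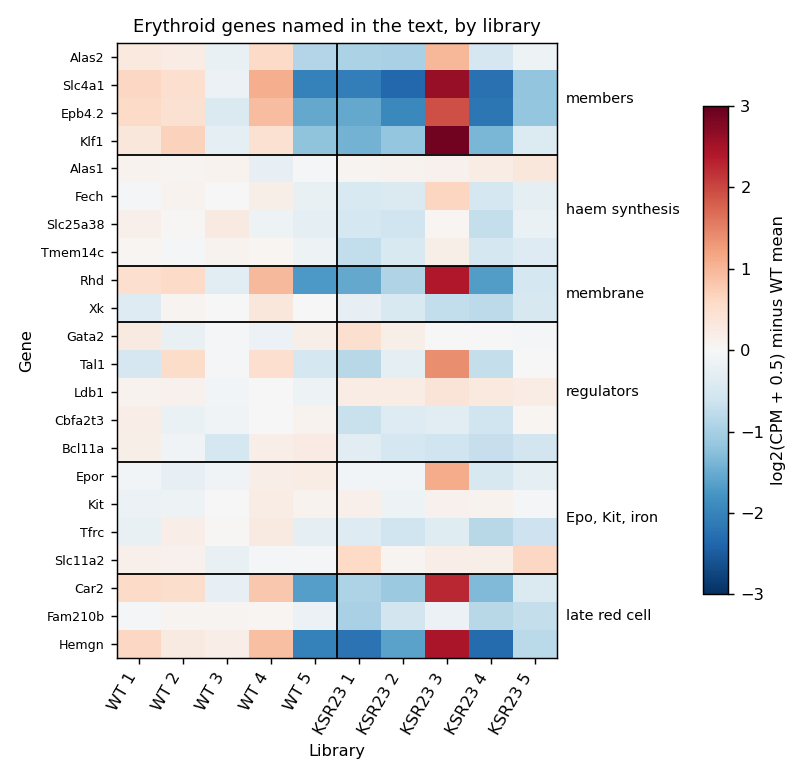
Log2(CPM + 0.5) minus the WT mean for the tested erythroid genes named here (rows, grouped by list) in each library (columns). Red marks higher and blue lower values: in Alas2, Slc4a1, Klf1, Epb4.2, Rhd, Car2 and Hemgn the column of KSR23 replicate 3 is red, while WT replicate 5 and the other KSR23 libraries are blue.

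Haem synthesis runs from Alas1 or Alas2 to Fech, which puts iron into the ring. Of 13 tested genes, 2 were lower, beside 14.8% of all tested genes. These were Slc25a38, a mitochondrial glycine carrier, with a log2 FC of -0.41 (SE 0.148, edgeR adjusted p = 0.0412), and Tmem14c, a porphyrin transporter, with -0.37 (SE 0.127, adjusted p = 0.0353). With library size alone as the scaling neither Slc25a38 (adjusted p = 0.121) nor Tmem14c (0.130) passed. The housekeeping enzyme Alas1 lay between 27.2 and 35.3 CPM in WT and was 35.5 CPM in KSR23 replicate 3, inside the range of the other KSR23 libraries (34.8 to 41.2), unlike Alas2. Fech was 103 CPM in KSR23 replicate 3 and at most 74.1 CPM elsewhere. The log2 FC was 0.18 for Alas1 (SE 0.0823, adjusted p = 0.114) and -0.15 for Fech (SE 0.172, adjusted p = 0.530). Without KSR23 replicate 3, 6 of the 13 were lower, where 14.0% of all tested genes were. Among the 6 were Fech at -0.43 (edgeR adjusted p = 0.000819), Slc25a38 at -0.53 (0.00639) and Tmem14c at -0.53 (0.000205), while Alas1 stood at 0.19 (0.116).

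Of 18 membrane genes, 16 had their highest CPM in KSR23 replicate 3. The list summed to 226 CPM there, to between 86.1 and 97.9 CPM in the other KSR23 libraries and to between 92.0 and 140 CPM in WT. Rhag, a Rh-associated glycoprotein, had libraries under 5 counts and was not tested. Rhag was 14.1 CPM in KSR23 replicate 3 and at most 4.46 CPM elsewhere. Of 11 tested, Xk, a protein of the red cell membrane, was lower at -0.59 (SE 0.154, edgeR adjusted p = 0.00767), and its highest CPM was in WT. Unlike Slc4a1, Xk was not raised in KSR23 replicate 3, at 4.14 CPM against 3.93 to 5.96 CPM in the other KSR23 libraries. The log2 FC of Xk stood at -0.54 without KSR23 replicate 3 (edgeR adjusted p = 0.0158). With that library left out, 7 of the 11 were lower, where 14.0% of all tested genes were.

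Of 12 regulators, 6 had their highest CPM in KSR23 replicate 3. Gata1, the GATA factor of that lineage, had 47, 38, 29, 48 and 9 counts in WT replicates 1 to 5. In KSR23 replicates 1 to 5 Gata1 had 4, 9, 123, 5 and 25 counts and, with 1 library under 5, it was not tested. Tal1, a partner of Gata1, was 2.52 CPM in KSR23 replicate 3 and at most 1.20 CPM elsewhere. The tested log2 FC was -0.05 for Tal1 (SE 0.595, edgeR adjusted p = 0.958) and 0.15 for Gata2 (SE 0.172, adjusted p = 0.535), a factor of earlier progenitors and of endothelium. Tal1 stood at -0.94 (adjusted p = 0.144) and Gata2 at 0.18 (adjusted p = 0.492) without KSR23 replicate 3. Ldb1, a bridging partner of GATA complexes that many cells use, was higher at 0.27 (SE 0.0776, adjusted p = 0.0132). Bcl11a, a repressor of embryonic globins, was lower at -0.64 (SE 0.172, adjusted p = 0.00909), and so was the corepressor Cbfa2t3 at -0.37 (SE 0.119, adjusted p = 0.0253). In KSR23 replicate 3 both lay among the other KSR23 libraries, Bcl11a at 3.02 CPM (2.81 to 3.75) and Cbfa2t3 at 28.6 CPM (22.3 to 37.3). Without KSR23 replicate 3, Ldb1, Bcl11a and Cbfa2t3 stood at 0.24, -0.62 and -0.38 and were still called. Cbfa2t3 missed the threshold with library size alone (adjusted p = 0.0607), and without both KSR23 replicate 3 and WT replicate 5 Ldb1 (0.0898) and Cbfa2t3 (0.0574) missed it.

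Of the genes for receptors and iron uptake, Epor, the erythropoietin receptor, was 4.25 CPM in KSR23 replicate 3 and between 1.07 and 2.05 CPM in the other libraries. Its log2 FC was 0.12 (SE 0.316, edgeR adjusted p = 0.801), and without KSR23 replicate 3 the direction turned to -0.31 (adjusted p = 0.352). Kit, the stem cell factor receptor of progenitors and mast cells, was 20.4 CPM in KSR23 replicate 3 and between 16.5 and 22.1 CPM in the others, with a log2 FC of 0.04 (SE 0.0974, adjusted p = 0.804) and of 0.02 without that library (adjusted p = 0.902). Tfrc, the transferrin receptor, was lower at -0.58 (SE 0.111, adjusted p = 0.000699) and stayed so without KSR23 replicate 3 at -0.62 (adjusted p = 0.000403). Slc11a2, an iron transporter, was higher at 0.36 (SE 0.110, adjusted p = 0.0186) and at 0.39 without that library (adjusted p = 0.0132). Tfrc and Slc11a2 are used by most cells, and Tfrc in KSR23 replicate 3 (35.5 CPM) lay close to the highest of the other KSR23 libraries (35.3 CPM).

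Among 16 late red cell genes, 10 were highest in KSR23 replicate 3. Car1 and Car2 encode carbonic anhydrases, and Hemgn a nuclear protein of erythroid cells. Car1 had 370 counts in KSR23 replicate 3 and at most 47 elsewhere, and was not tested. Car2 was between 8.79 and 50.8 CPM in WT, between 11.2 and 21.3 CPM in 4 KSR23 libraries and 139 CPM in KSR23 replicate 3. The log2 FC was 0.19 for Car2 (SE 0.574, edgeR adjusted p = 0.829) and 0.01 for Hemgn (SE 0.894, adjusted p = 0.994), and without KSR23 replicate 3 it was -1.15 for Car2 (adjusted p = 0.00885) and -2.51 for Hemgn (adjusted p = 0.00261). Fam210b, a mitochondrial protein of haem-making cells, was lower at -0.64 (SE 0.113, adjusted p = 0.000329) and -0.77 without that library.

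Among the tested genes other than Alas2, Slc4a1 and Klf1, 8 of the 10 with levels most like the mean of these 3 after each group mean was subtracted were, in order, Car2, BC100530, Rhd, Epb4.2, Pcsk7, Tmcc2, Ngp and Camp. Epb4.2 is the named gene Epb42. Their within-group Pearson r over the 10 libraries lay between 0.964 for Camp and 0.988 for Car2, and without KSR23 replicate 3 between 0.875 for Ngp and 0.971 for Car2. With the group means left in, r over the 10 libraries was between 0.963 and 0.980 for Car2, Rhd, Epb4.2 and Tmcc2, and was 0.777 for Pcsk7, 0.657 for Ngp, 0.583 for Camp and 0.436 for BC100530. The libraries share their scaling and KSR23 replicate 3 stretches every pair. Car2, Rhd and Epb4.2 are on the erythroid lists, while Ngp and Camp encode granule proteins of immature neutrophils. Unlike the erythroid genes, BC100530 (log2 FC 2.48, SE 0.537, edgeR adjusted p = 0.00195), Ngp (2.16, SE 0.608, adjusted p = 0.0118) and Camp (2.37, SE 0.633, adjusted p = 0.00869) were higher in KSR23 over all 10 libraries. With KSR23 replicate 3 left out the log2 FC was 1.46 for BC100530 (edgeR adjusted p = 0.000653), 0.81 for Ngp (0.0430) and 1.08 for Camp (0.0237). Pcsk7 stood at 0.10 (SE 0.102, adjusted p = 0.511), Tmcc2 at -0.05 (SE 0.510, adjusted p = 0.955) and Rhd at 0.16 (SE 0.687, adjusted p = 0.882). Without that library Pcsk7 stood at 0.03 (adjusted p = 0.868), while Tmcc2 at -1.23 (0.000454) and Rhd at -1.51 (0.00785) were lower, for Rhd with the direction turned. Between pairs of Alas2, Slc4a1, Klf1 and Epb4.2 the within-group r lay between 0.923 and 0.983, and without KSR23 replicate 3 between 0.820 and 0.949.

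Markers of immature myeloid cells moved with the erythroid genes in KSR23 replicate 3. The 9 genes of that list summed to 288 CPM there, to between 19.1 and 67.2 CPM in the other KSR23 libraries and to between 7.38 and 32.0 CPM in WT, and all 9 were highest there. The 8 markers of blood neutrophils and monocytes summed to 189 CPM there, to between 29.8 and 48.8 CPM in the other KSR23 libraries and to between 10.2 and 18.5 CPM in WT, and all 8 were highest there. Of the immature myeloid list 3 of 5 tested genes were higher in KSR23, and of the neutrophil and monocyte list 5 of 6, both over all libraries, where 16.2% of all tested genes were higher, and without KSR23 replicate 3, where 15.7% were. Their part in the erythroid result was not tested.

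The lists for other tissues and cells gave these sums in that library. The 10 liver markers summed to 21.3 CPM in KSR23 replicate 3, below the other KSR23 libraries (27.0 to 32.1 CPM) and above WT (8.97 to 13.5 CPM). Most of the sum in KSR23 replicate 3 was 1 gene, F2, at 18.6 CPM. F2 was 21.5 to 24.6 CPM in the other KSR23 libraries and 4.49 to 7.34 CPM in WT. Alb went the other way, at 1.01 CPM in KSR23 replicate 3, 1.96 to 3.41 CPM in the other KSR23 libraries and 2.78 to 5.57 CPM in WT. The 9 spleen markers summed to 13.3 CPM, the lowest of 10 libraries (13.9 to 15.8 CPM in the other KSR23 libraries and 18.6 to 26.8 CPM in WT). Most of that was Madcam1, at 7.78 CPM (8.19 to 11.1 CPM in the other KSR23 libraries and 12.5 to 16.1 CPM in WT). Tlx1 was not low, at 1.85 CPM (0.859 to 2.05 CPM elsewhere). Of the haem and iron clearance genes, Spic (1.01 CPM) and Marco (7.44 CPM) were highest in KSR23 replicate 3. Cd163 (6.60 CPM) and Cd5l (0.224 CPM) were lowest there. Whether spleen material was present was not tested. Lymphocyte markers summed to 8.22 CPM (6.37 to 9.99 elsewhere) and endothelial markers to 423 CPM (394 to 470 elsewhere). Platelet and megakaryocyte markers summed to 32.7 CPM, above the other KSR23 libraries (16.8 to 26.5 CPM) and below WT (34.2 to 46.8 CPM), and 8 of the 12 were highest there. Pf4 made up most of this sum, at 19.5 CPM in KSR23 replicate 3, 13.3 to 21.6 CPM in the other KSR23 libraries and 29.5 to 38.4 CPM in WT.

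**Figure D5:**
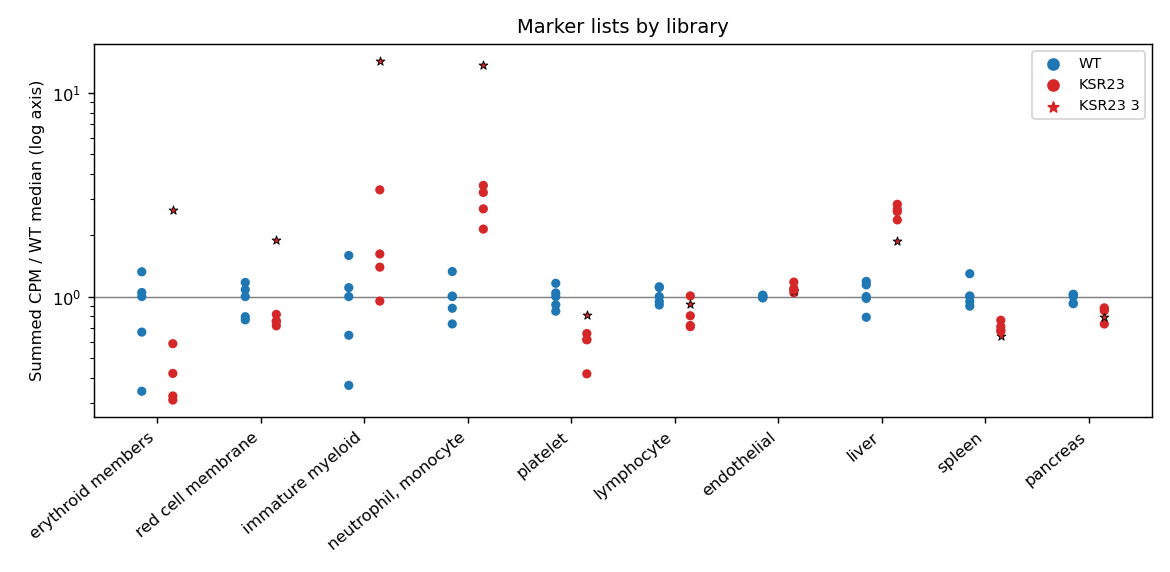
Summed CPM of each marker list in each library, divided by the WT median of that list, on a log axis, with KSR23 replicate 3 as a star. The star is the highest point in the erythroid, membrane, immature myeloid and neutrophil and monocyte lists and lies among or below other libraries in the lymphocyte, endothelial, liver, spleen and pancreas lists.

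The RefSeq promoter windows of GRCm38.p6 (250 bases before to 50 after the start) were searched on both strands for AGATAA, a site of GATA factors. They were also searched for CCNCNCCC, the consensus of Klf1. Any link of these sites to the levels in the libraries was not tested. Windows were matched for 7 of 8 genes; none was matched for Slc4a1. Of 32851 windows of all genes, 11.2% held AGATAA and 49.5% held CCNCNCCC. Alas2 held 1 and 4 matches, Epb42 1 and 0, Klf1 none, Hbb-bs 1 and 1, Hbb-bt 0 and 1, and Hba-a1 and Hba-a2 none. Only these exact letters were searched. The similar TGATAA, for example, lies in the windows of Hba-a1 and Hba-a2 and on the other strand in that of Klf1, and was not counted. The Alas2 promoter is shown as the one with counted reads that held both motifs, as the 250 bases before the start at chrX:150547167-150547416 on the plus strand, with the matches in capitals. The AGATAA match reads TTATCT, on the other strand, and the 4 CCNCNCCC matches, also on the other strand, overlap one another in part.
Alas2: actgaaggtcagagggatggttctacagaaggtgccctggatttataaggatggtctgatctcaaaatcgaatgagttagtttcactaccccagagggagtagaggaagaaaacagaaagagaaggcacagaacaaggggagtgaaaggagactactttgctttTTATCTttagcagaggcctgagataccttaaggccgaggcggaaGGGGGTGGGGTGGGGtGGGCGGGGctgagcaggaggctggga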

How the data were processed

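RNA of whole pancreas was primed with oligo-dT, amplified with an ultra-low input kit without molecular identifiers and sequenced as single-end reads of 75 bases. The authors used TopHat 2.1.0 against mm10 and HTSeq (0.6.1p1 per the submitters' processing notes), keeping reads that lay strictly within the models of 1 gene, and deposited the counts per gene as whole numbers. The gene annotation and strand setting are not given in the sources used here. The 5 tallies that name no gene were kept out of library sizes.

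Genes that reached 5 counts in each of the libraries were tested with edgeR 4.0.16 in R 4.3.3 (TMM scaling, quasi-likelihood F test, Benjamini-Hochberg over all tested genes), KSR23 against WT, with no covariate. CPM used the scaled library sizes and log2 CPM a prior count of 2. A standard error was the log2 FC divided by the square root of F. Ratios within a library were compared by exact permutation in Python 3.11.15. On simulated counts for this comparison (14353 genes), 88.7% of genes changed by 1 on the log2 scale and 98.9% of those changed by 2 were found, and 3.24% of calls were false. The changed genes were picked at random from those tested. Klf1, Slc4a1 and Epb4.2 had an SE of 0.800 to 0.830, so these shares do not say how often such a change in them would be found. Window shares used exact matches on the transcript strand of GENCODE M21. The genes and lists were chosen with earlier results of these data known. Reported by rule were all named genes, every called gene and 15 set genes of the erythroid lists, the first gene and up to 2 called rises and falls of each other list, and the 10 genes most like the named ones, except some genes that are not reported here. Reads copied by PCR are not separate molecules, so the limit of 3 counts covers counting error only. The results were recomputed with DESeq2 1.42.0, the likelihood ratio test, other scalings and filters, a replicate block and left-out libraries.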

Additional observations from a re-analysis of the deposited data

Results flagged for a closer look

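In groups of 5 libraries, a value far from the other 4 was looked for in 26 groups of values, and 9 were found. For separate values with a normal distribution the rule would flag about 1 in 20, or 1.3 of 26. The CPM here need not follow that distribution and the groups share libraries, so 1.3 is only a rough guide. In KSR23 replicate 3 the CPM was 75.9 for Alas2, 86.8 for Slc4a1, 16.4 for Klf1 and 11.1 for Epb4.2, against at most 34.0, 5.79, 1.20 and 0.875 in the other KSR23 libraries. The summed CPM in that library was 1.62 for the globins outside the named set, 226 for the membrane list and 816 for the late red cell list, against at most 0.176, 97.9 and 484 in the other KSR23 libraries. The log2 ratio of Slc4a1 to Alas2 was 0.19 in KSR23 replicate 3 and -2.77 in WT replicate 5, each far from its own group. These values share libraries and reads, so they are not separate findings.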

How the results depend on the processing

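Over the 18 alternatives that kept KSR23 replicate 3, none of Alas2, Slc4a1, Klf1 and Epb4.2 passed the threshold (DESeq2 gave no adjusted p for Klf1), and between 3321 and 4652 genes were called in all. Without KSR23 replicate 3, Alas2, Slc4a1 and Klf1 were all called, 3 against 0, and also without it and WT replicate 5 (3), a fit added after the data were seen. Leaving out 1 library at a time, between 0 and 3 of them were called, and the log2 FC ran from -1.67 to 1.08 for Klf1 and from -2.32 to 0.42 for Slc4a1. Slc4a1 turned to -0.16 without WT replicate 5, to -2.32 without KSR23 replicate 3 and to -2.59 without both, and Klf1 to -1.67 and -1.92 without KSR23 replicate 3 and without both. Of the 6 erythroid lists, between 5 and 26 genes were called when 1 library was left out, against 9 over all libraries: 5 without KSR23 replicate 1, 26 without KSR23 replicate 3, and 24 without KSR23 replicate 3 and WT replicate 5. The lists held 53 tested genes both over all libraries and without KSR23 replicate 3, where 31.0% and 29.7% of all tested genes were called. Of all tested genes, 3734 of 13895 were called without KSR23 replicate 1 and 28.2% without KSR23 replicate 3 and WT replicate 5. The difference of the log2 ratio ran from -0.97 to 0.0040 for Klf1 to Alas2 (the latter without KSR23 replicate 4), from 0.37 to 0.62 for Klf1 to Slc4a1 and from -1.45 to -0.55 for Slc4a1 to Alas2. The share of counts on Alas2, Slc4a1 and Klf1 differed by 4.61 per 1e+06 counts over all libraries (KSR23 minus WT) and by -1.19 without the 50 genes with the most counts in the total, and ran from -27.9 to 14.5 per 1e+06 with 1 library left out, turning to -3.69 without WT replicate 5. The cause was not tested.

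The replicate numbers do not pair the libraries: the correlation of same-numbered libraries lay between -0.111 and 0.0661, and only number 2 correlated best with its own. With the number as a replicate block 3749 genes were called, Slc4a1 stood at -1.28 and Klf1 at -0.67, and neither was called. Leaving out libraries for the CPM of untested genes was not run, since those named are at 0 in every library, and the 5 ratios planned with globins could not be formed. Klf1 and Epb4.2 rest on under 20 counts in several libraries, which limits their precision.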

Other observations

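The gene lists read beside the erythroid genes held these further differences between KSR23 and WT over all 10 libraries (edgeR, adjusted over all tested genes). Of the haem and iron clearance genes, Hp, which encodes the haemoglobin scavenger haptoglobin, was higher with a log2 FC of 1.26 (adjusted p = 0.00965), Lrp1, a receptor that takes up haem bound to hemopexin, was higher at 0.53 (0.00624), and Slc40a1, the iron exporter ferroportin, was lower at -0.35 (0.00461). Hp missed the threshold without KSR23 replicate 3 and WT replicate 5 (0.0509), and Slc40a1 with library size alone (0.0767). Pf4, a platelet chemokine also made by macrophages, was lower at -0.83 (2.26e-05). Leaving out KSR23 replicate 3, Hp stood at 0.99 (0.0218), Lrp1 at 0.62 (0.000748), Slc40a1 at -0.39 (0.00191) and Pf4 at -0.84 (3.12e-05).

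Of the myeloid lists, Ltf (2.71, adjusted p = 0.00212), Camp (2.37, 0.00869), Csf3r (2.61, 3.25e-06), S100a9 (2.48, 0.000788) and S100a8 (2.38, 0.00105) were higher in KSR23, and Elane stood at 1.48 (0.115). Without KSR23 replicate 3, edgeR gave a log2 FC of 1.59 for Ltf, 1.08 for Camp, 2.39 for Csf3r, 1.54 for S100a9, 1.47 for S100a8 and 0.58 for Elane (adjusted p = 0.481), all but Elane still called. Of the lymphocyte genes, Cd3e was lower at -1.5 (adjusted p = 5.77e-05) and Cd3g higher at 0.87 (0.0321), a call lost without KSR23 replicate 3 (0.0605), and Cd3d was not tested. Of the endothelial genes, Tie1 (0.33, adjusted p = 0.00583) and Plvap (0.33, 0.00120) were higher, Cdh5 (-0.47, 0.000218) and Tek (-0.27, 0.0488) were lower, and Pecam1 stood at -0.04 (0.669). Tek missed the threshold without KSR23 replicate 3 (0.113).

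Of the liver genes, F2 was higher at 2.05 (adjusted p = 1.07e-09) and Alb lower at -0.83 (0.0186). Of the spleen genes, Cxcl13 (-1.11, adjusted p = 0.00726) and Madcam1 (-0.58, 0.000873) were lower, and Tlx1, a factor needed for the spleen to form, stood at 0.08 (0.846). Of the pancreas genes, Cela1 (-2.53, adjusted p = 1.37e-11) and Cpa1 (-1.37, 3.82e-08) were lower, and Ppy (0.95, 0.00133), Sox9 (0.86, 1.03e-05) and Prss2 (0.37, 0.0181) were higher. With KSR23 replicate 3 left out, the called liver, spleen and pancreas genes named here, and Cd3e, Tie1, Plvap and Cdh5, kept their direction and stayed under the threshold.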
